A study of Saccharomyces cerevisiae with 4 samples.

Results

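The 9 genes described here encode enzymes that make and reshape the beta-glucan of the yeast cell wall, as they were read on a 2-colour array devoted to cell wall genes. They were chosen by name from the platform annotation. FKS1 and GSC2 encode glucan synthases, BGL2, EXG1, EXG2, SCW10 and SUN4 encode glucanases or proteins related to them, and CRH1 and UTR2 encode enzymes that join chitin to glucan. All 9 were found, with 2 features each, so that they hold 18 of the 896 features on the array and 9 of the 353 genes named on it. The series held 4 arrays of 1 kind, called yellow experiments 1 to 4 in the labels. On each of them cDNA from 1 preparation of total RNA carried Cy3 in one channel and Cy5 in the other, so that the array compared a sample with itself. The strain was Saccharomyces cerevisiae BY4741, which is haploid, of mating type a and used widely in the laboratory. Its untreated cells grew overnight in rich medium (YEPD) at 24 °C, were thinned out at an optical density between 0.8 and 1 to one of 0.2, and were collected 6 h later. The labels do not state whether each array had a culture of its own, so the p-values below speak of the spread between arrays, part or all of which may be technical.

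The wall of budding yeast is built on branched beta-1,3-glucan, a polymer of glucose that is spun out through the plasma membrane by a synthase complex and gives the cell its shape and strength. Outside the membrane other enzymes cut, lengthen and branch these chains and tie them to chitin and to mannoproteins, and the same kind of cutting lets a daughter cell separate from its mother. FKS1 encodes the catalytic subunit that serves growing cells, while its paralog GSC2, also called FKS2, is known for expression in starved, sporulating or wall-stressed cells.

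Values are log2 ratios of the 2 channels. They are given after each array was centred on the median of all its features, because the medians as deposited were -0.058, -0.25, -0.19 and -0.24 on arrays 1 to 4. Both channels held the same RNA, so a ratio measures the departure of the array from equality and not a level of transcript. The sources used here do not name the numerator dye, so "above" and "below" refer to the deposited direction. For the same reason the mating type could not be checked by level: of 7 marker genes of a-type cells, MFA1, AGA1 and AGA2 were on the array, and of 4 of the other mating type SAG1 was.

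Over all 4 arrays the synthase genes had the highest SDs of the 9. FKS1 read 1.25, 0.26, 0.71 and -0.27 on arrays 1 to 4. GSC2 read 1.26, 0.37, 0.64 and -0.44 on the same arrays. Both genes were thus highest on array 1, where they lay beyond 2-fold (2.38-fold and 2.39-fold), and both lay below the array median on array 4 only. No other gene of the 9 passed 2-fold on any array. On array 1, FKS1 and GSC2 stood 18th and 17th from the top of 345 genes with a value, among which 11.9% lay beyond 2-fold in either direction. On array 4 they stood 227th and 258th of 350.

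Neither synthase was called different from a ratio of 1, which does not show that its ratio was 1. In simulated data with SDs drawn from all genes tested, limma called 45% of genes with a true mean log2 ratio of 0.5. That share runs over genes of all SDs and was not computed at the larger SDs of FKS1 and GSC2. The mean log2 ratio of FKS1 was 0.49 ± 0.649 (SD, n = 4), with a 95% interval of -0.25 to 1.23 and an adjusted p of 0.262 in limma. That of GSC2 was 0.46 ± 0.703 (SD, n = 4), with an interval of -0.34 to 1.25 and an adjusted p of 0.312 in limma. The SDs of FKS1 and GSC2 lay at the 80.9th and 82nd percentile of the 345 genes tested, whose median SD was 0.236. Without array 1 the mean of FKS1 was 0.23 and that of GSC2 0.19, and without array 4 they were 0.74 and 0.76. The SD of FKS1 without array 1 was 0.492, below that of EXG1 at 0.524, and that of GSC2 was 0.562.

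**Figure D1:**
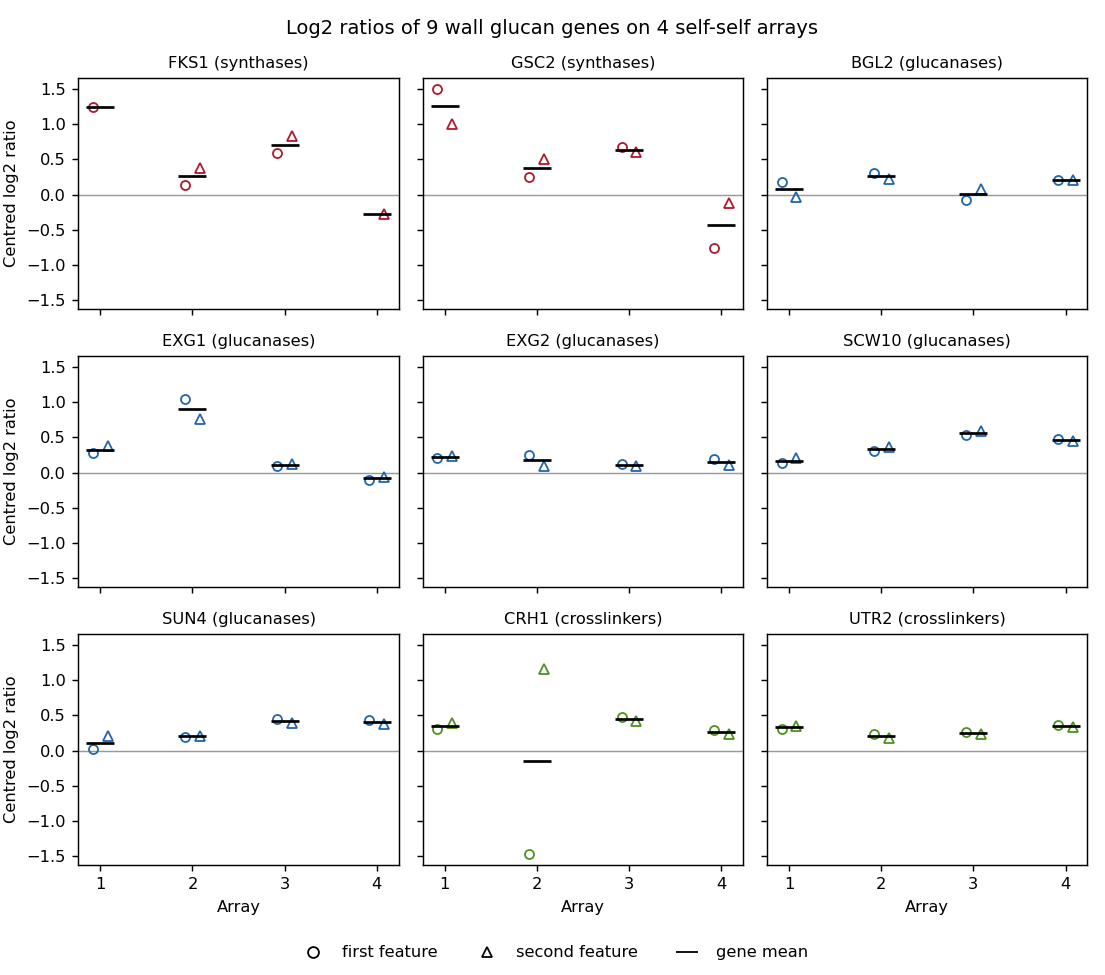
Centred log2 ratio of each feature of the 9 genes on the 4 arrays (circles, first feature; triangles, second feature), with the mean of the features of a gene as a bar; colour marks the class. The gene means of FKS1 and GSC2 lie above 1.2 on array 1 and below 0 on array 4, and the features of CRH1 separate on array 2.

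The profiles of the synthase genes over the arrays were also close to each other. Subtracting GSC2 from FKS1 left -0.0019, -0.12, 0.071 and 0.17 on arrays 1 to 4, a mean difference of 0.030 ± 0.120 (SD, n = 4) with p = 0.75 in an exact two-sided sign-flip permutation test, whose smallest p with 4 arrays is 0.125 and which bears on the mean only. The root mean square difference over the 4 arrays, used here as the measure of likeness, was 0.108. Of the 326 other genes with values on all 4 arrays, GSC2 was the nearest to FKS1, and FKS1 was the nearest to GSC2. The next nearest to both were ECM32, which encodes a helicase, and PRB1, which encodes a vacuolar protease. ECM32 lay 0.205 from FKS1 and 0.204 from GSC2, and PRB1 lay 0.330 and 0.319 from them. The difference between the paralogs averaged 0.0894 in absolute size per array. The duplicate features of FKS1 differed by 0.243 on average, from arrays 2 and 3 only, and those of GSC2 by 0.364. These are unlike measures, since the first compares gene values, mostly means of 2 features, and the others compare single features. On array 1, for example, the 1 feature of FKS1 at 1.25 was set against the mean of GSC2 features at 1.51 and 1.01. Without array 3, GSC2 was second nearest to FKS1, while FKS1 stayed the nearest to GSC2. Whether transcripts of one paralog hybridise to the features of the other was not tested.

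**Figure D2:**
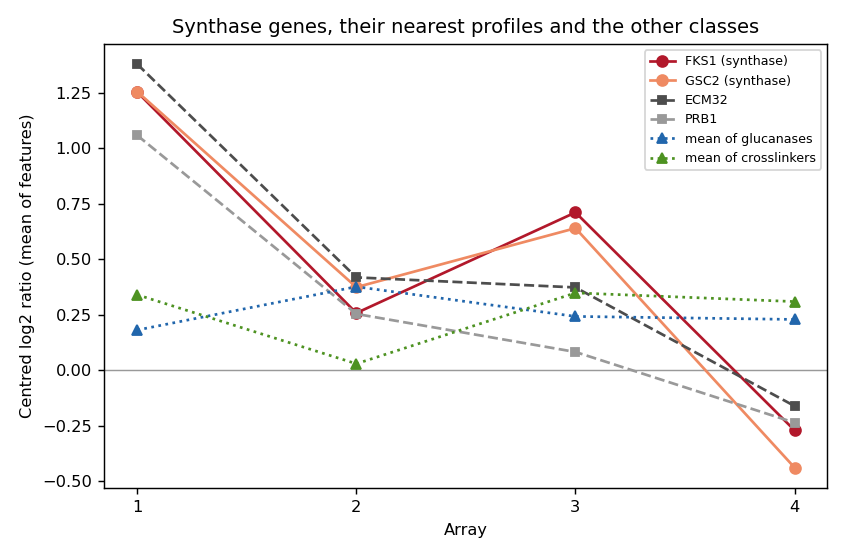
Centred log2 ratio (mean of features) on each array for FKS1, GSC2, the next nearest genes ECM32 and PRB1, and the means of the glucanase and crosslinker classes; lines join the values of 1 gene or class and imply no order of arrays. FKS1 and GSC2 overlap, with a root mean square difference of 0.108, while the class means of glucanases and crosslinkers stay between 0.029 and 0.38.

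Both synthases had values of unusual kinds, missing ones in FKS1 and mostly whole-number ratios in GSC2. FKS1 lacked a value for its second feature on array 1 and for its first feature on array 4, so its value on each of these arrays rests on 1 feature. These were 2 of the 16 possible values of the synthases, or 12.5%, and the only ones missing among the 72 of the 9 genes, or 2.78%, against 5.46% over all features with 1 gene. A further set of values was, as deposited and within 0.00005, the log2 of one whole number between 1 and 10 divided by another, here called a whole-number ratio. Of the 14 values present for the synthases 5 were of this kind, or 35.7%, against 7.2% over all features with 1 gene. As deposited, before centring, the second feature of FKS1 read 7/10 on array 4. GSC2 as deposited read 1/1, 7/5 and 1/2 in its first feature on arrays 2, 3 and 4 and 4/3 in its second on array 3, each in lowest terms. Such ratios thus occurred on arrays 2, 3 and 4 and in none of the 3 values of array 1.

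The glucanases and the crosslinkers contributed almost no such values. Among 40 values of the glucanase genes 1 was a whole-number ratio, the 1/1 of EXG2 on array 2, and among 16 values of the crosslinkers 0 were. A reading of 1/1 is a deposited log2 ratio of exactly 0, which 0.73% of values over all features with 1 gene also had. Counted by gene, FKS1, GSC2 and EXG2 had a missing value or a whole-number ratio, 3 of 9, against 39.4% of all genes tested. Channel intensities were not used here, so a link of these readings to low signal was not tested.

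**Figure D3:**
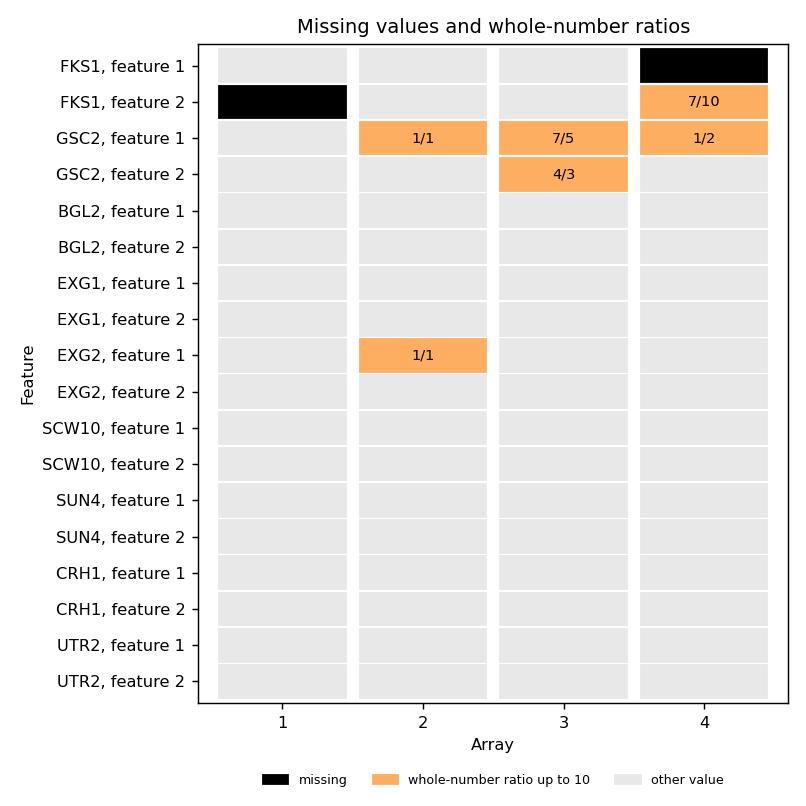
Each of the 18 features (rows) on each of the 4 arrays (columns): black, no value deposited; orange, a whole-number ratio as deposited (numbers up to 10), printed in lowest terms; grey, any other value. Of the 8 marked cells, 7 belong to FKS1 and GSC2 and 1 to EXG2.

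Among the glucanases, SCW10, which encodes a wall protein resembling glucanases, read 0.17, 0.34, 0.57 and 0.46 on arrays 1 to 4. All 4 values were above the array median, with a mean of 0.38 ± 0.171 (SD, n = 4), a 1.31-fold departure. SCW10 passed the test with an adjusted p of 0.0488 in limma. SUN4, of a family known from cell separation, read 0.11, 0.20, 0.42 and 0.41. Its mean was 0.29 ± 0.153 (SD, n = 4), and with an adjusted p of 0.0780 in limma it did not pass. SCW10 and SUN4 were low on array 1 and high on arrays 3 and 4 in the same manner: SUN4 was the nearest gene to SCW10 of the 326, at a root mean square difference of 0.107, and SCW10 was the third nearest to SUN4.

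EXG1 and EXG2, a pair of exo-1,3-beta-glucanases of which the first is the main secreted form and the second is anchored at the membrane, differed in their steadiness. EXG1 read 0.33, 0.90, 0.11 and -0.084 on arrays 1 to 4, so that array 2 lay well above the rest. EXG2 read 0.22, 0.17, 0.11 and 0.15. Its SD of 0.0476 was the 15th lowest of the 345 genes, while the SD of EXG1, 0.428, lay at the 70.7th percentile. The mean of EXG1 was 0.31 ± 0.428 and that of EXG2 0.16 ± 0.0476 (SD, n = 4), with adjusted p-values of 0.276 and 0.127 in limma. EXG1 minus EXG2 averaged 0.15 ± 0.411 (SD, n = 4; exact permutation p = 0.625). Without array 2 the mean of EXG1 was 0.12 and the difference -0.042. In profile, EXG2 was the 30th nearest of the 326 genes to EXG1, and EXG1 was the 133rd nearest to EXG2. Both features of EXG1 were high on array 2, at 1.05 and 0.76, so the departure of that array was not that of a single feature.

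BGL2, which encodes an abundant wall protein with endo-1,3-beta-glucanase and transfer activity, had the lowest mean of the 9 on centred values of all arrays, in an order that is not resolved. It read 0.074, 0.26, 0.0040 and 0.21, with a mean of 0.14 ± 0.120 (SD, n = 4) and an adjusted p of 0.260 in limma. As deposited, its mean and that of EXG2 turned below 0, to -0.047 and -0.022.

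UTR2 and CRH1, whose products are transglycosylases that attach chitin to beta-glucan, had the lowest and the highest mean duplicate difference of the 9. The rank of CRH1 came from array 2: by the median over arrays its difference was 0.068, against 0.243 for FKS1 and 0.376 for GSC2. UTR2 read 0.33, 0.21, 0.25 and 0.35 on arrays 1 to 4. It lay above the median on every array, at a mean of 0.28 ± 0.0644 (SD, n = 4), a 1.22-fold departure. UTR2 passed the test with an adjusted p of 0.0467 in limma, and its 2 features differed by 0.0278 to 0.0601 on the 4 arrays.

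CRH1, a gene known to be induced when the wall is damaged, read 0.35, -0.15, 0.45 and 0.27. The value of array 2 is the mean of features that read -1.48 and 1.17, a difference of 2.65, and so describes neither of them. On arrays 1, 3 and 4 the same features differed by 0.0727, 0.0634 and 0.0544. The mean of CRH1 was 0.23 ± 0.265 (SD, n = 4), with an adjusted p of 0.252 in limma. It was -0.097 from the first feature alone, 0.55 from the second alone and 0.36 without array 2, with adjusted p-values of 0.868, 0.0950 and 0.0893 in limma. Neither of the deviating readings was a whole-number ratio. In profile, CRH1 was the 35th nearest of the 326 genes to UTR2, and UTR2 was the 5th nearest to CRH1.

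Counted together, 2 of the 9 genes were above a ratio of 1 at an adjusted p of 0.05 in limma (SCW10 and UTR2) and 0 were below. Over all 345 genes tested 24.9% were called, 10.7% above and 14.2% below, so 2 of 9 is near the share of the array as a whole. At an unadjusted p of 0.05 SUN4 also passed, 3 of 9, against 41.4% of all genes. Outside the 9, MET17, a gene deleted in the strain background, was called above a ratio of 1 as well. Its mean was 0.38 ± 0.0893 (SD, n = 4), with an adjusted p of 0.03475 in limma, and the source of its reading was not tested. MET17 had a missing value or whole-number ratio, and its call under other processing is not given here. The calls of SCW10 and UTR2 ended on the values as deposited, where 32.5% of all genes were called, with adjusted p-values of 0.124 and 0.402 in limma. They also ended with robust moderation, at 0.0512 and 0.05002 in limma, where 62 of 345 genes were called. With any 1 array left out, adjusted p-values ran from 0.0817 to 0.137 for SCW10 and from 0.102 to 0.135 for UTR2 in limma. In those fits 0 to 1 of all genes were called, so that loss is not particular to SCW10 and UTR2. The call of SCW10 also ended with arrays scaled to 1 spread (0.0551), with quantile normalization (0.0571) and from its first feature alone (0.0615).

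All 9 means lay above 0, against 46.1% of all genes tested, with a median of 0.29 for the 9 and of -0.043 for all genes. On the values as deposited 7 of the 9 did, against 30.7% of all genes. Of the 36 values of the 9 genes 32 lay above the array median, against 48.1% of the values of all genes, and the 4 below it were FKS1, GSC2 and EXG1 on array 4 and CRH1 on array 2. The sign was the same on all 4 arrays for BGL2, EXG2, SCW10, SUN4 and UTR2, 5 of 9, against 51.3% of all genes. In the order of means FKS1 came first, followed by GSC2, SCW10, EXG1, SUN4, UTR2, CRH1, EXG2 and BGL2. Each of the 8 neighbouring pairs in this order had overlapping ranges over the arrays, so the order is not resolved by these data. Without array 1, FKS1 and GSC2, at 0.23 and 0.19, came after SCW10 at 0.46, SUN4 at 0.34, EXG1 at 0.31 and UTR2 at 0.27.

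By class, the synthases averaged 1.25, 0.32, 0.68 and -0.36 on arrays 1 to 4. The glucanases averaged 0.18, 0.38, 0.24 and 0.23. The crosslinkers averaged 0.34, 0.029, 0.35 and 0.31. Synthases minus glucanases averaged 0.22 ± 0.707 (SD, n = 4; exact permutation p = 0.75), and synthases minus crosslinkers 0.22 ± 0.653 (SD, n = 4; exact permutation p = 0.625). Crosslinkers minus glucanases averaged -0.00046 ± 0.234 (SD, n = 4; exact permutation p = 1). With 4 arrays the smallest two-sided p of this test is 0.125, and adjusted over all 6 differences examined, family pairs included, the p-values were 0.9 to 1. No difference of means could pass this test, and each mean difference was smaller than its SD. Without array 1 the mean of the synthases lay below those of the glucanases and crosslinkers, with differences of -0.070 and -0.017.

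Spread between arrays is given as a description, since the classes hold 2, 5 and 2 genes. Over all 4 arrays the SDs of the synthases, 0.649 and 0.703, lay above those of all glucanases and crosslinkers, the nearest being EXG1 at 0.428. The other glucanases had SDs of 0.0476 to 0.171 and the crosslinkers 0.0644 and 0.265, within the range of the glucanases. Without array 1 the synthases no longer stood apart, as EXG1 then exceeded FKS1. Among all genes tested, those with a missing value or whole-number ratio had a median SD of 0.581 over 136 genes, and those with neither one of 0.173 over 209. The synthases thus sat close to the level of 0.581 and SCW10, SUN4, BGL2 and UTR2 at or below that of 0.173, while EXG2, with 1 such reading, was among the steadiest genes and EXG1, with none, was not.

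The features of the synthases differed by 0.0704 to 0.635 in the 6 gene and array combinations with both values, 1 of them under 0.1. Those of the glucanases differed by 0.0013 to 0.290 in 20 combinations, 15 of them under 0.1. Those of the crosslinkers differed by under 0.1 in 7 of 8 combinations, the exception being CRH1 on array 2. Averaged over arrays, the difference was 0.0422 for UTR2, 0.0493 for SCW10, 0.0735 for EXG2, 0.0798 for SUN4, 0.112 for BGL2, 0.119 for EXG1, 0.243 for FKS1, 0.364 for GSC2 and 0.709 for CRH1. The median over 349 genes with duplicates was 0.114, which 5 of the 9 genes lay below. It was 0.277 over the 140 of them with a missing value or whole-number ratio and 0.0811 over the 209 with neither.

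**Figure D4:**
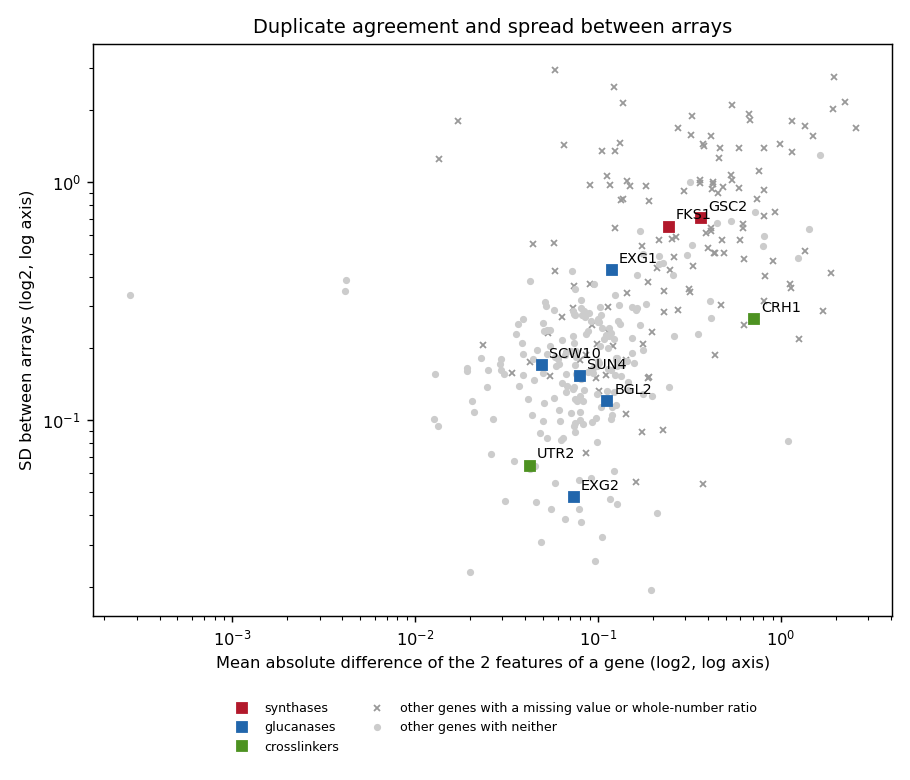
SD between arrays against the mean absolute difference of the 2 features of a gene, both on log axes, for the 9 genes (coloured squares, by class) and the other genes tested (grey crosses, with a missing value or whole-number ratio; grey dots, with neither). FKS1 and GSC2 lie towards the upper right, UTR2, EXG2, SCW10, SUN4 and BGL2 towards the lower left, and CRH1 to the right at an SD of 0.265.

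Other genes of the pathway were few on the array. Of 11 further genes listed as relatives of the 9 or as other glucanases, SPR1 alone was present. It encodes an exo-1,3-beta-glucanase of sporulating cells related to EXG1 and EXG2. It read 1.33, 1.77 and 1.16 on arrays 1, 3 and 4 and had no value on array 2. SPR1 passed above a ratio of 1, with an adjusted p of 0.0347 in limma, but with the same 3 values and array 2 left out of the fit over all genes it was 0.0858. In that fit 0 of 335 genes passed. As deposited and with robust moderation SPR1 passed, at adjusted p-values of 0.0210 and 0.0362 in limma. Its features differed by 0.811 on average, more than those of any of the 9 genes.

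The list of other genes of beta-1,3-glucan assembly held 13 names, of which KNR4 and SMI1 are the same gene. Of its genes 8 were tested, with a median of 0.044, and 2 passed, 1 in each direction, against 24.9% of all genes. GAS4, a glucanosyltransferase gene of sporulation, was above at 0.45 ± 0.155 (SD, n = 4), and GAS5, its counterpart in growing cells, was below at -0.99 ± 0.415 (SD, n = 4), with adjusted p-values of 0.0372 and 0.0347 in limma. Both passed as deposited, at 0.0492 for GAS4 and 0.0210 for GAS5, and with robust moderation, at 0.0389 and 0.0362 in limma. With any 1 array left out neither passed, at 0.0719 to 0.104 for GAS4 and 0.0759 to 0.0965 for GAS5 in limma. In those fits 0 to 1 of all genes passed. The features of GAS5 differed by 1.87 on average. GAS1, the main glucanosyltransferase of growing cells, read 2.02, 0.54, 1.17 and -1.24 on arrays 1 to 4 and did not pass (adjusted p = 0.473 in limma). Like the synthases it was highest on array 1 and below the median on array 4. So were GAS2 and SAC7, at 0.76 and 0.93 on array 1 and -0.32 and -0.57 on array 4. GAS3, GAS4, GAS5, RHO1 and ROM2 were not, and the share of all genes with this pattern was not counted. The features of GAS1 differed by 0.808 on average. Of the 8 genes tested 5, GAS1 among them, had a missing value or whole-number ratio. RHO1, the GTPase that activates the synthase, did not pass, at -0.13 ± 0.188 (SD, n = 4; adjusted p = 0.373 in limma).

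The list for chitin, the partner polymer of CRH1 and UTR2, held 10 names, of which CHS4 and SKT5 are the same gene. Of its genes 4 were tested. Of these 0 passed in limma at an adjusted or an unadjusted p of 0.05, against 24.9% and 41.4% of all genes. CHS3, the synthase of most wall chitin, read 2.94, -0.86, 1.51 and -0.20 on arrays 1 to 4, and its activator SKT5 read 0.77, 2.61, -0.60 and -1.54. The features of CHS3 differed by 1.35 on average and those of SKT5 by 1.15. CHS1, a repair enzyme, had a mean of -0.29 ± 1.02, and CHS7, which serves the export of the CHS3 product, one of 0.14 ± 0.266 (SD, n = 4). CHS1, CHS3 and SKT5 had a missing value or whole-number ratio and CHS7, the one of smallest SD, had neither.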

How the data were processed

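The authors' deposited table gave 1 log2 ratio per feature and array. That the scale is log2 was read from the values, since ratios of small whole numbers recur on it. Scanner, software, background correction, feature filter, normalization and numerator dye are not given in the sources used here, and array number limits the precision. Names came from the platform annotation, whose 724 features with 1 gene all matched the R64 gene table by Entrez identifier, with 0 symbols changed.

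The members, lists and tests were chosen with earlier results of these data known. Arrays 1 to 4 held 830, 809, 818 and 840 values. Each array was centred on its median, because some medians lay beyond 0.1 of 0, and the features of a gene were averaged. A gene needed values on 3 or more arrays, and the 345 that had them were tested against 0 with limma 3.58.1 in R 4.3.3 (intercept, eBayes, two-sided, Benjamini-Hochberg over all genes, threshold 0.05), which was checked on simulated data. Differences between classes and family members used exact sign flips over the arrays, 16 in all. Named genes are the 9 members, called genes and family relatives in 3 lists, and for FKS1 and GSC2 the 3 nearest genes. RHO1 and GAS1 were picked from the uncalled genes of their list, whose other uncalled genes are named only beside the profile of GAS1. The chitin genes are named to complete their list, and SUN4 and SCW10 as each other's neighbours. All of these were chosen after their values were seen. MET17 is named as the gene deleted in the strain background. Alternatives covered centring, scaling, quantile normalization, single features, robust moderation, thresholds and each array left out. Figures used matplotlib 3.10.9.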

Additional observations from a re-analysis of the deposited data

Results flagged for a closer look

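Of 23 sets of 4 array values examined for a single distant array (the 9 gene values, the duplicate differences with 4 values, and 6 differences between classes or genes), 2 had one. For independent and normally distributed values chance alone gives about 1 in 20. That rate need not hold here, since duplicate differences cannot fall below 0 and the 6 differences share gene values. The difference between the features of CRH1 on array 2, at 2.65 against 0.0544 to 0.0727 on the other arrays, left a gap of 0.993 of the whole range. The difference of crosslinkers minus glucanases was -0.35 on array 2 and 0.081 to 0.16 on the others, a gap of 0.845 of the range. The CRH1 value of array 2 enters both.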

How the results depend on the processing

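Of the 9 genes 2 were called, both above. The count was 0 as deposited, with robust moderation, at an adjusted p of 0.01 and with each array left out (0 to 0), and 1 from first features, with scaled arrays and with quantile normalization. It was 3, SUN4 being the third, from second features (adjusted p of SUN4 0.0491 in limma) and at an adjusted p of 0.1. Over all genes 37 were above and 49 below. As deposited 21 were above and 91 below, and with an array left out 0 to 1 genes were called.

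As deposited the means of BGL2 and EXG2 were -0.047 and -0.022, and from first features that of CRH1 was -0.097. FKS1 minus GSC2 was -0.15 from first and -0.014 from second features, and -0.016 to 0.079 with an array left out. Second features gave -0.11 for synthases minus crosslinkers, 0.16 for crosslinkers minus glucanases and -0.28 for UTR2 minus CRH1. Crosslinkers minus glucanases was 0.0075 with scaled arrays, 0.0081 with quantile normalization and 0.0051 without features that had missing values or whole-number ratios, a setting that left no synthase feature. With an array left out it ran from -0.054 to 0.12, synthases minus glucanases from -0.070 to 0.48, synthases minus crosslinkers from -0.017 to 0.51, EXG1 minus EXG2 from -0.042 to 0.28, and UTR2 minus CRH1 from -0.047 to 0.14. The cause of these reversals was not tested.

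Whole-number ratios of the synthases numbered 3 when limited to 5, and 3 to 5 with an array left out, where missing values were 1 to 2. Those of the glucanases numbered 2 at a tolerance of 0.0005, 3 with numbers up to 20 and 0 to 1 with an array left out, and those of the crosslinkers 1 at that tolerance. The median SD of the crosslinkers ran from 0.0700 to 0.191 with an array left out. By likeness, an alternative added after the data were seen, GSC2 ranked 1 to 2 from FKS1 with an array left out. No paired analysis was possible because all arrays form 1 group, with no second group to share replicate numbers. The differences between classes and genes were themselves taken within arrays.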
